A study of Mus musculus with 6 samples.

Results

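The PDGF ligands and receptors were followed as a family of 6 genes, the ligands Pdgfa, Pdgfb, Pdgfc and Pdgfd and the receptors Pdgfra and Pdgfrb, out of 31053 genes in each count matrix. The 6 genes were listed by name, not chosen by their levels, and all 6 were present in the matrices of all 6 libraries. The libraries are 3′ single-cell RNA-seq of mouse lung, with 1 library per condition. The 4 sorted libraries, of 3 embryonic ages (E13.5, E15.5 and E18.5) and of postnatal day 8 (P8), came from lungs of genotype Cxcl12DsRed/+, which carry 1 copy of an allele with the red fluorescent protein DsRed placed in Cxcl12. Cells were sorted as DsRed+, CD31+, CD45- and EpCAM- endothelial cells (ECs), and the protocol also describes a mesenchymal-enriched fraction that is reporter-positive and CD31-. The other 2 libraries are unsorted whole lungs at E18.5, labelled heterozygous control (Cxcl12DsRed/+) and homozygous null (Cxcl12DsRed/DsRed). The DsRed allele is thus present in all 6 libraries, lungs were pooled before capture, and no library comes from a wild-type lung. Because a condition is 1 library, no p-value, SD or standard error is given, and intervals cover counting error only.

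PDGFs are secreted dimeric growth factors that act through a pair of receptor tyrosine kinases, PDGFRα and PDGFRβ. The PDGF-B of endothelium is known for recruiting pericytes and smooth muscle cells, which carry PDGFRβ, and the PDGF-A of lung epithelium for acting on PDGFRα-bearing fibroblasts and the alveolar myofibroblasts that form septa. PDGF-C and PDGF-D are made as latent proteins whose CUB domain is cut off before they bind receptor.

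In the GRCm38 build, with GENCODE gene bounds, Pdgfa (ENSMUSG00000025856) lies at chr5:138976014-138997370 on the minus strand and Pdgfb (ENSMUSG00000000489) at chr15:79995874-80014977 on the minus strand. Pdgfc (ENSMUSG00000028019) lies at chr3:81036416-81214040 and Pdgfd (ENSMUSG00000032006) at chr9:6168584-6378850, both on the plus strand. Pdgfra (ENSMUSG00000029231) lies at chr5:75152292-75198215 on the plus strand, and Pdgfrb (ENSMUSG00000024620) is on chromosome 18. Since reads were 3′ tags of whole genes, splice forms were not told apart.

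The libraries held 63746333 to 117522172 UMIs (unique molecular identifiers, 1 per captured transcript). Levels are summed UMIs per 1000000 UMIs of the same cells (CPM), followed in brackets by an exact 95% Poisson interval. The labelled genotypes of the whole lungs went against Cxcl12 itself: the kept cells of the library labelled null held Cxcl12 at 191 CPM and those of the library labelled control at 1.27 CPM, against 264 to 1158 CPM in the sorted libraries. The names of the deposited matrices also give these 2 lungs the opposite genotypes to their labels. The whole lungs are therefore called the library labelled null and the library labelled control throughout, and every direction between them is a direction between these labels. Of cell barcodes, 140 occurred in both whole lungs and 20 to 54 in each other pair of libraries.

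ECs were cells with at least 2 UMIs of Pecam1 plus Cdh5, mesenchymal cells had at least 5 UMIs of Col1a1 plus Col3a1, and cells that passed both gates were kept apart. ECs numbered 173 of 12726 kept cells at E13.5, 9019 of 11649 at E15.5, 9042 of 9542 at E18.5 and 8227 of 8451 at P8. Mesenchymal cells numbered 11266, 2060, 283 and 68. The E13.5 library was thus mostly mesenchymal: the 5 endothelial check markers (Tie1, Erg, Egfl7, Cldn5 and Emcn) summed to 85.0 CPM over its kept cells, against 2414 to 7678 CPM at the later times. Within the EC gate the same markers summed to 2939 to 7807 CPM and the 5 mesenchymal check markers to 156 CPM at E13.5 and 25.2 to 42.3 CPM later. The whole lungs held 1746 ECs and 3992 mesenchymal cells in the library labelled control and 2726 and 4663 in the library labelled null.

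Pdgfb was far higher in ECs than in mesenchymal cells of all 4 sorted libraries, and its level in ECs was lowest at E13.5 and highest at E18.5. In sorted ECs Pdgfb stood at 73.8 CPM (59.5 to 90.5) at E13.5, 143.5 CPM (141.0 to 146.0) at E15.5, 212.9 CPM (209.2 to 216.7) at E18.5 and 195.9 CPM (192.4 to 199.4) at P8. None of these 4 intervals overlapped. In sorted mesenchymal cells Pdgfb was at 0.890, 2.07, 3.99 and 7.44 CPM at the same times, the last from 4 UMIs. With every cell thinned to 2000 UMIs, a Pdgfb UMI was found in 12.3%, 25.6%, 34.1% and 31.7% of ECs (37.6%, 66.7%, 66.1% and 63.8% unthinned), against 0.125% to 1.47% of mesenchymal cells. Median depth was 5657 to 8456 UMIs per EC and 7344 to 8651 UMIs per mesenchymal cell.

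On the log2 scale of CPM plus 0.5, Pdgfb in sorted ECs was higher by 0.96 (0.64 to 1.29) at E15.5 than at E13.5, where it rests on 92 UMIs, and by 0.57 (0.52 to 0.62) at E18.5 than at E15.5. From E18.5 to P8 it was lower by a small margin, with a log2 ratio of -0.12 (-0.17 to -0.07). Each range in brackets after a log2 ratio joins the opposite ends of both Poisson intervals, so it is wider than a 95% interval. Over E15.5 to P8 the log2 ratio was 0.45 (0.40 to 0.50), beside a median of 0.18 over all genes tested. Part of that span depended on the scale: without mitochondrial, ribosomal protein and haemoglobin UMIs in the total, the Pdgfb ratio was 0.22 and the median over all genes -0.06. The make-up of the ECs also differed between times, as given with the arterial split below, and its part was not tested.

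No member passed a 2-fold difference in sorted ECs between neighbouring times, among the 3 members (Pdgfa, Pdgfb and Pdgfd) with at least 10 CPM at 1 of the times compared. Over all genes with that level, 6.21% passed it from E13.5 to E15.5, 13.8% from E15.5 to E18.5, 8.4% from E18.5 to P8 and 20.7% from E15.5 to P8. The nearest to 2-fold were Pdgfb from E13.5 to E15.5 and Pdgfd from E18.5 to P8, the latter with a log2 ratio of -0.96 (-1.08 to -0.85).

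**Figure D1:**
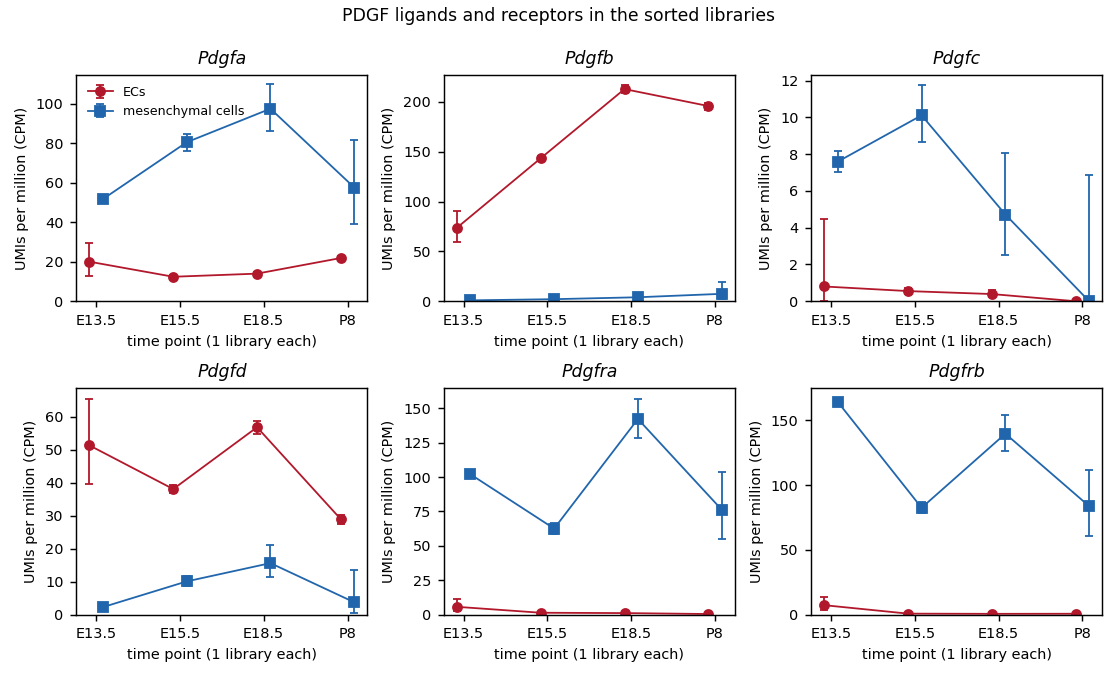
Level of each PDGF gene in counts per 1000000 UMIs (CPM, linear axis) against time point in the 4 sorted libraries, with ECs as circles and mesenchymal cells as squares; bars are exact 95% Poisson intervals and lines only join points of separate libraries. Pdgfb and Pdgfd were higher in ECs than in mesenchymal cells at all 4 times, and Pdgfa, Pdgfra and Pdgfrb were higher in mesenchymal cells.

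ECs were then split by Gja4, a connexin gene of arteries, and Gpihbp1, a lipoprotein lipase transporter of capillaries, at 2 UMIs each. The side with more Pdgfb was not the same at the earliest split that could be made and at the later ones. At E15.5 its level was 153.5 CPM (150.0 to 157.1) in the 5409 ECs with Gja4 alone and 120.4 CPM (114.4 to 126.5) in the 1089 with Gpihbp1 alone, a log2 ratio of 0.35 (0.24 to 0.46). At E18.5 it was 173.3 CPM (167.9 to 178.7) in 3776 Gja4 cells and 241.8 CPM (233.6 to 250.2) in 2050 Gpihbp1 cells, a ratio of -0.48 (-0.57 to -0.39). At P8 the levels were 131.3 CPM (124.0 to 139.0) in 1576 cells and 224.5 CPM (214.2 to 235.2) in 1300 cells, a ratio of -0.77 (-0.92 to -0.62). Pdgfb was thus higher in the Gja4 cells at E15.5 and higher in the Gpihbp1 cells at E18.5 and P8, and the difference between times was not tested. At E13.5 only 1 EC had Gpihbp1 alone, so no ratio was formed, and the 158 Gja4 cells stood at 71.2 CPM.

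The E18.5 order recurred in both whole lungs, which were not sorted for the reporter. Pdgfb was at 130.3 CPM (113.2 to 149.3) in Gja4 ECs and 200.7 CPM (192.1 to 209.6) in Gpihbp1 ECs of the library labelled control, and at 155.7 CPM (145.1 to 166.9) and 219.3 CPM (211.2 to 227.6) in the library labelled null. Sorted ECs with both genes were close to the Gja4 cells at E15.5 (153.4 CPM). They were nearer the Gpihbp1 cells at E18.5 (233.6 CPM) and P8 (203.0 CPM). These cells, outside the ratios above, numbered 1454 of 9019 ECs at E15.5, 2126 of 9042 at E18.5 and 4762 of 8227 at P8.

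ECs with Gja4 were then divided by Gkn3, a gene of proximal arteries, and by Alox12, whether or not they had Gpihbp1. The cells with Gkn3 held less Pdgfb. Their levels were 79.9 CPM at E15.5, then 99.3 and 75.4 CPM at E18.5 and P8, against 177.4, 200.2 and 183.4 CPM in Gja4 ECs with Alox12 and no Gkn3, a distal arterial gate, and the intervals did not overlap at any of the 3 times. High levels were found in the gate for aCap cells, the large capillary ECs (Car4 plus Ednrb, no Gja4), at 257.7 and 243.0 CPM at the later 2 times, although this gate held 96.0 CPM at E15.5 (136 cells). ECs of the tip-like gate (Esm1 plus Apln) were at 166.8, 274.1 and 212.4 CPM. The 96 lymphatic-gated ECs of E18.5 were the lowest of the gated ECs at that time, at 33.2 CPM (23.0 to 46.4).

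Pdgfd, a ligand that binds PDGFRβ, was higher on the Gja4 side of the split of sorted ECs at E15.5 and E18.5 and not at P8. Over all sorted ECs its level was 51.3 CPM (39.5 to 65.5), 38.1 CPM (36.8 to 39.4), 56.8 CPM (54.9 to 58.8) and 28.9 CPM (27.6 to 30.3) in order of age, so that P8 was the lowest. At E15.5 it was at 57.7 CPM in Gja4 ECs and 7.05 CPM in Gpihbp1 ECs, a log2 ratio of 2.95 (2.61 to 3.29). At E18.5 the levels were 88.3 and 27.1 CPM, a ratio of 1.68 (1.48 to 1.90). At P8 they were 28.2 and 30.7 CPM, with a ratio of -0.12 (-0.48 to 0.24) that includes 0. Most ECs of P8 had both genes, as given above, and fell outside the split. The difference between the times was not tested. Gja4 ECs of E13.5 held 54.8 CPM.

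Between the Gkn3 and Alox12 gates Pdgfd ran opposite to Pdgfb at E15.5 and E18.5. Gkn3 cells held 78.6 CPM of Pdgfd at E15.5 and 139.3 CPM (125.6 to 154.1) at E18.5, against 46.6 and 65.6 CPM in Alox12 cells. At P8 the 2 gates were at 28.5 and 26.7 CPM, with overlapping intervals. In the aCap gate Pdgfd was higher at each later time, with 9.15, 32.4 and 44.9 CPM from E15.5 to P8. The Gkn3 and Alox12 gates also rose between the embryonic times, but both were lowest at P8. The aCap gate thus ran opposite to them only after E18.5. ECs with at least 2 UMIs of Mki67 plus Top2a, genes of cycling cells, held less Pdgfd than the other ECs at E15.5 (20.9 against 46.2 CPM) and at E18.5 (30.8 against 59.7 CPM). At P8 their intervals overlapped. Pdgfb was also lower in cycling ECs at E15.5, at 125.3 against 152.1 CPM, while at P8 it was higher, at 211.2 against 194.2 CPM.

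Pdgfa was the third ligand with a difference along the split. In all sorted ECs it was at 20.0 CPM (13 to 29.6), 12.4 CPM (11.7 to 13.2), 13.99 CPM (13.1 to 14.98) and 21.9 CPM (20.8 to 23.1). It stood at 16.1 against 5.88 CPM (Gja4 against Gpihbp1, log2 ratio 1.38, 0.97 to 1.79) at E15.5, 18.5 against 8.87 CPM (1.02, 0.64 to 1.41) at E18.5 and 28.5 against 19.9 CPM (0.51, 0.11 to 0.91) at P8. Gkn3 cells were at 46.3, 37.1 and 49.3 CPM, while Alox12 cells held 5.88, 9.36 and 24.8 CPM. Lymphatic-gated ECs of E18.5 were higher still, at 66.4 CPM (51.6 to 84.2).

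Of the 3 members with enough UMIs, Pdgfa and Pdgfd passed 2-fold between Gja4 and Gpihbp1 ECs at E15.5, where 12.6% of all genes did, and the same 2 at E18.5, where 13.6% did. None passed at P8, where 10.8% did. Cells are placed in these gates by their UMIs of Gja4 and Gpihbp1, and median depth differed between the gates by time: 7726 against 10140 UMIs at E15.5, 5452 against 5809 at E18.5 and 4989 against 5232 at P8. Its part in the differences was not tested.

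**Figure D2:**
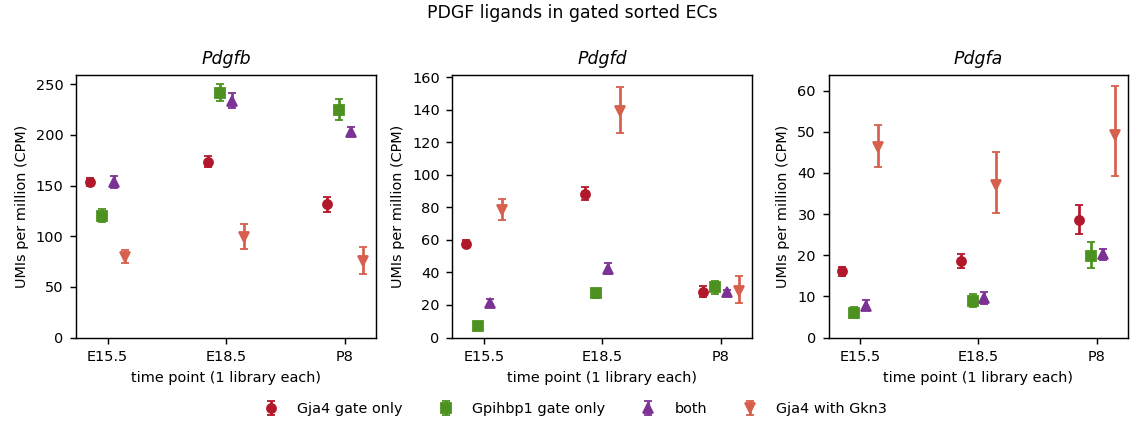
Pdgfb, Pdgfd and Pdgfa in counts per 1000000 UMIs (CPM, linear axes) in gated ECs of the sorted libraries at E15.5, E18.5 and P8; circles are ECs with Gja4 alone, squares Gpihbp1 alone, upward triangles both, downward triangles the part of the Gja4-positive ECs with Gkn3, and bars exact 95% Poisson intervals. Pdgfb shows the Gja4 circle above the Gpihbp1 square at E15.5 (153.5 and 120.4 CPM) and below it at P8 (131.3 and 224.5 CPM).

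At E18.5 the sorted ECs could be set beside those of both whole lungs, whose genotype labels are in doubt as given above. Pdgfd was at 56.8 CPM in sorted ECs and 15.5 CPM (13.7 to 17.5) in ECs of the library labelled control, a log2 ratio of 1.84 (1.62 to 2.06), and was the 1 member past 2-fold, where 6.87% of all genes were. Against ECs of the library labelled null, which held 27.4 CPM (25.6 to 29.4), the ratio was smaller, at 1.04 (0.89 to 1.19), again the 1 member past 2-fold, where 4.02% of all genes were. The Gja4 share moved with it, since 3776 of 9042 sorted ECs had Gja4 alone, against 195 of 1746 ECs of the library labelled control and 583 of 2726 of the library labelled null. Within Gja4 ECs Pdgfd was at 88.3 CPM in the sorted library and 53.3 CPM (42.5 to 65.9) and 61.0 CPM (54.4 to 68.2) in the libraries labelled control and null. Within Gpihbp1 ECs it was at 27.1 CPM against 9.76 and 15.6 CPM, and in the aCap gate at 32.4 CPM against 9.12 and 13.1 CPM. Pdgfd was thus higher in the sorted library within each of these gates, and the part of the Gja4 share was not tested. Over all ECs Pdgfb was closer, at 212.9 CPM in the sorted library against 183.1 CPM in the library labelled control (log2 ratio 0.22, 0.14 to 0.29). The library labelled null held 202.3 CPM (0.07, 0.01 to 0.14). The sort and the library cannot be told apart in this comparison.

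Pdgfc was low in both gated populations of the sorted libraries. In sorted mesenchymal cells it was at 7.59 CPM (7.04 to 8.18) at E13.5, 10.1 CPM (8.65 to 11.7) at E15.5 and 4.72 CPM (2.51 to 8.07) at E18.5. In the 68 mesenchymal cells of P8 no UMI was found, which with 537761 UMIs allows up to 5.58 CPM. At E13.5 it was highest among the mesenchymal gates in cells of the smooth muscle gate (Acta2 plus Myh11), at 19.0 CPM (17.3 to 20.8). Sorted ECs held 0.391 to 0.802 CPM from E13.5 to E18.5 and no UMI among 61259286 at P8, which allows up to 0.0490 CPM.

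The sorted mesenchymal cells also held Pdgfa, which was highest in the pericyte and smooth muscle gates. Its levels were 51.8 CPM (50.3 to 53.3), 80.6 CPM (76.4 to 85.0), 97.6 CPM (86.3 to 110.0) and 57.7 CPM (39.2 to 81.8) from E13.5 to P8. In the pericyte gate (Cspg4, Kcnj8 and Notch3) Pdgfa was at 139.2, 120.0 and 149.0 CPM at E13.5, E15.5 and E18.5, and in the smooth muscle gate at 114.5, 122.4 and 149.4 CPM. The fibroblast gate (Tcf21 and Wnt2) held 21.2, 17.2 and 29.2 CPM. The pericyte and smooth muscle gates were thus above the fibroblast gate at each of the 3 times, with no overlap of intervals. By these gates the gaps were smaller in the whole lungs of E18.5, in the library labelled control and then null. There the smooth muscle gate held 48.0 and 44.3 CPM, the pericyte gate 64.3 and 75.9 CPM and the fibroblast gate 28.5 and 30.1 CPM. The gates are not the cluster classes given below, where pericyte-like cells held 174.6 and 186.1 CPM and alveolar fibroblast-like cells 14.1 and 18.3 CPM. Smooth muscle-like cells held 32.9 and 28.1 CPM and adventitial fibroblast-like cells 36.9 and 32.9 CPM. In the library labelled control, 43.7% of pericyte-gated cells held Pdgfra alone after thinning to 2000 UMIs, against 1.59% of pericyte-like cells.

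Both receptors were far higher in mesenchymal cells than in ECs of the sorted libraries, and lower at E15.5 than at E13.5. Pdgfra was at 102.0 CPM (99.9 to 104.1), 62.5 CPM (58.8 to 66.4), 142.2 CPM (128.5 to 157.0) and 76.2 CPM (54.7 to 103.4), the last from 41 UMIs. Pdgfrb was at 164.2 CPM (161.6 to 166.8), 82.5 CPM (78.2 to 86.9), 139.7 CPM (126.1 to 154.3) and 83.7 CPM (61.0 to 112.0). From E13.5 to E15.5 the log2 ratios were -0.70 (-0.82 to -0.59) for Pdgfra and -0.99 (-1.09 to -0.89) for Pdgfrb, beside a median of -0.12 over all genes tested. Neither receptor reached 2-fold, although with cells of both gates kept in the Pdgfrb ratio was -1.17. Mesenchymal cells were 88.5% of kept cells at E13.5 and 17.7% at E15.5, so the sorted fraction may differ between these libraries and cannot be told apart from age.

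In the same pair of libraries Pdgfd was the 1 member past 2-fold, of 5 with at least 10 CPM at 1 of the times, against 11.2% of all genes. It stood at 2.25 CPM (1.95 to 2.58) at E13.5 and 10.1 CPM (8.596 to 11.7) at E15.5, a log2 ratio of 1.94 (1.56 to 2.31). The 5 endothelial check markers also differed between these cells, summing to 31.5 CPM at E13.5 and 60.3 CPM at E15.5, and their part in the Pdgfd difference was not tested. At E13.5 the mesothelial gate (Wt1 and Upk3b) held the most mesenchymal Pdgfd, at 12.7 CPM (9.09 to 17.2).

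The make-up of the mesenchymal cells differed between times: 2465 of 11266 passed the smooth muscle gate at E13.5 and 1160 of 2060 at E15.5. Pdgfrb was lower at E15.5 within the pericyte gate (294 against 124 CPM), the smooth muscle gate (219 against 102 CPM) and the fibroblast gate (115 against 37.1 CPM). Pdgfra was lower at E15.5 within the smooth muscle gate (59.1 against 29.6 CPM) and the pericyte gate (57.7 against 45.4 CPM), while in the fibroblast gate it was at 90.7 and 91.4 CPM. Across the gates of E13.5, Pdgfrb was highest in the pericyte gate and Pdgfra in the mesothelial and fibroblast gates (93.3 and 90.7 CPM), whose intervals overlapped. In each of these gates Pdgfra was below its level over all E13.5 mesenchymal cells, given above. The pericyte, fibroblast and mesothelial gates held 1214, 1283 and 347 cells, so most mesenchymal cells of E13.5 passed none of the gates. Cells outside the gates were not measured apart or compared between times.

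Sorted ECs held little of either receptor. Pdgfra was at 5.61 CPM at E13.5 (7 UMIs) and 0.376 to 1.31 CPM later, and Pdgfrb at 7.22 CPM at E13.5 (9 UMIs) and 0.543 to 0.687 CPM later. The E13.5 ECs, highest for both receptors, were also the ECs with the most mesenchymal check marker UMIs, 156 CPM, and the part of such RNA was not tested.

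At 2000 UMIs per cell, a depth at which a receptor can be missed, single mesenchymal cells more often held UMIs of 1 receptor than of both. After thinning to 2000 UMIs, 15.2% of 11209 cells at E13.5 held Pdgfra alone, 20.5% Pdgfrb alone and 3.76% (3.41% to 4.13%, exact Clopper-Pearson interval) both. Pdgfrb was detected in 19.8% (18.1% to 21.6%) of the cells with Pdgfra and in 25.3% (24.4% to 26.2%) of the cells without it. That order did not hold in all populations: in mesenchymal-gated cells of the library labelled control the shares were 17.5% (15.9% to 19.1%) and 12.1% (10.6% to 13.7%), in those of the library labelled null 14.8% and 14.3%, and in the sorted cells of E18.5 26.2% and 17.9%, the last 2 pairs with overlapping intervals. At E15.5 the shares of Pdgfra alone, Pdgfrb alone and both were 10.2%, 13.8% and 1.13% of 2045 cells, and at E18.5 they were 17.0%, 13.8% and 6.01% of 283 cells. In ECs of the sorted libraries the share with either receptor alone was at most 0.585%, and no EC of any of the 4 libraries held both. Shares after thinning depend on depth: without thinning, 25.3% of the E13.5 cells held both.

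Within the gates of E13.5 the same order held in the pericyte and smooth muscle gates. Pdgfrb was found in 34.1% (26.1% to 42.8%) of pericyte-gated cells with Pdgfra and 45.3% (42.3% to 48.3%) of those without, intervals that overlap, and in 21.3% (16.6% to 26.6%) and 32.3% (30.4% to 34.4%) of smooth muscle-gated cells. In fibroblast-gated cells the shares were 19.7% and 18.5%, with overlapping intervals.

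The whole lungs gave the members by class, from clusters named by marker lists that hold none of the 6 genes. Pdgfa, the ligand of PDGFRα, was highest in ciliated-like, pericyte-like and AT1-like cells. In the library labelled control it was at 181.1 CPM (166.2 to 196.9) in ciliated-like, 174.6 CPM (159.4 to 190.9) in pericyte-like, 150.0 CPM (136.9 to 164.1) in AT1-like, 72.0 CPM (64.4 to 80.2) in AT2-like and 65.7 CPM (56.5 to 75.8) in secretory-like cells. The library labelled null held 198.4, 186.1, 182.2, 83.4 and 56.5 CPM in the same classes. Pericyte-like cells did not differ beyond the intervals from ciliated-like or AT1-like cells in either library, nor AT2-like from secretory-like cells in the library labelled control.

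AT1 cells are the flat gas-exchange cells of the alveolus and AT2 cells make surfactant. Pdgfa was higher in AT1-like than in AT2-like cells of the library labelled control, with a log2 ratio of 1.05 (0.77 to 1.34). Other mesenchymal classes were lower, from 14.1 CPM in alveolar fibroblast-like to 36.9 CPM in adventitial fibroblast-like cells. The gCap-like capillary cells were the lowest class, at 2.28 CPM in the library labelled control and 3.11 CPM in the library labelled null.

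Among the named classes of the whole lungs Pdgfb was highest in the gCap-like cells, the only endothelial class among them. They held 210.9 CPM (198.7 to 223.7) in the library labelled control and 213.7 CPM (203.9 to 223.8) in the library labelled null. Among the ECs left without a name, a cluster led by Car4, Ackr2, Prx and Apln held 232.9 and 255.7 CPM in the same order. It was above the gCap-like cells beyond the intervals in the library labelled null only, since those of the library labelled control overlapped. A cluster with Vwf, Dkk2, Ptprr and the lymphatic gene Ccl21a among its leading genes held 131.8 and 166.0 CPM in the same order of libraries. Among the named classes outside endothelium the highest were macrophage-like cells (21.5 and 24.4 CPM) and monocyte-like cells (19.3 and 25.8 CPM). Much of the monocyte-like Pdgfb sat in cells that also passed the endothelial gate: in the library labelled control 68 such cells held 66.8 CPM and the other 497 held 8.95 CPM.

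Pdgfd was low in the gCap-like cells, at 11.97 CPM (9.20 to 15.3) in the library labelled control and 19.1 CPM (16.3 to 22.3) in the library labelled null. It was higher in the Vwf and Dkk2 cluster, at 40.9 and 54.0 CPM, and at most 2.69 CPM in each named class outside endothelium. Gja4 ECs of these lungs held 53.3 and 61.0 CPM against 9.76 and 15.6 CPM in Gpihbp1 ECs, the same side as in the sorted E18.5 library. Pdgfc reached 10 CPM in smooth muscle-like cells alone among the 12 named classes, at 59.9 CPM (48.9 to 72.7) and 22.0 CPM (17.7 to 27.0).

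Pdgfra, the receptor of septal fibroblasts, was highest in myofibroblast-like cells. These held 1384 CPM (1364 to 1405) in the library labelled control and 1085 CPM (1066 to 1104) in the library labelled null. Smooth muscle-like cells held 485.8 and 672.7 CPM, adventitial fibroblast-like cells 423.9 and 288.6 CPM, and alveolar fibroblast-like cells 198.6 and 183.0 CPM. The log2 ratio of myofibroblast-like over alveolar fibroblast-like cells was 2.80 in the library labelled control. Whole-lung cells of the mesenchymal gate held 633.2 and 469.8 CPM, beside 142.2 CPM in the mesenchymal-gated cells of the sorted E18.5 library. The latter were 283 of 9542 kept cells of a library described as sorted for CD31. They may not stand for reporter-positive mesenchymal cells as a whole.

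Pdgfrb had another leader, the pericyte-like cells, at 466.8 CPM (441.7 to 493.0) and 474.1 CPM (451.7 to 497.2). Adventitial fibroblast-like cells followed at 158.6 and 140.8 CPM, then myofibroblast-like cells at 98.0 and 84.1 CPM and smooth muscle-like cells at 51.1 and 58.6 CPM. Alveolar fibroblast-like cells held 12.5 and 13.8 CPM, a log2 ratio of 5.16 below the pericyte-like cells of the library labelled control. The 2 receptors therefore ranked the mesenchymal classes differently, and Pdgfra was at 38.3 and 17.4 CPM in the pericyte-like cells.

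**Figure D3:**
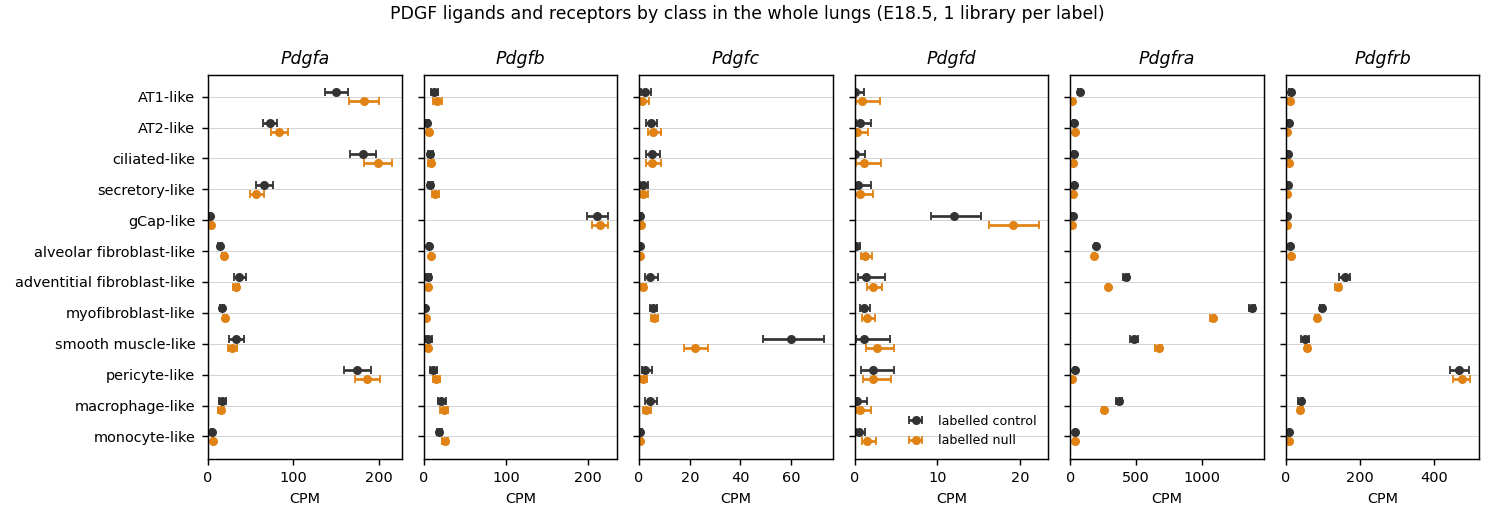
Level of each PDGF gene (CPM, linear axes of separate range) in the 12 named classes of the whole E18.5 lungs, in the library labelled control (dark) and the library labelled null (orange), with exact 95% Poisson intervals. Pdgfrb peaks in pericyte-like cells in both libraries, Pdgfra in myofibroblast-like cells and Pdgfb in gCap-like cells.

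Per cell, myofibroblast-like cells held Pdgfra alone in 71.9% and 70.7% and both receptors in 17.4% and 11.99% of cells after thinning, in the library labelled control and then null. Alone means that no UMI of the other receptor was found at this depth, not that it was absent. Pdgfrb was found in 19.5% and 14.5% of the myofibroblast-like cells with Pdgfra. The shares in those without Pdgfra were 16.1% and 13.1%, with overlapping intervals in each library. Pericyte-like cells held Pdgfrb alone in 50% and 50.2% and both in 3.18% and 2.66%. Alveolar fibroblast-like cells held Pdgfra alone in 25.2% and 24.4% and both in 1.33% and 0.849%. Adventitial fibroblast-like cells had a more even mix, with both receptors in 12.2% and 10.0%. In gCap-like cells, which should lack both, neither receptor was found in 98.6% of 725 cells and 98.5% of 976 cells.

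**Figure D4:**
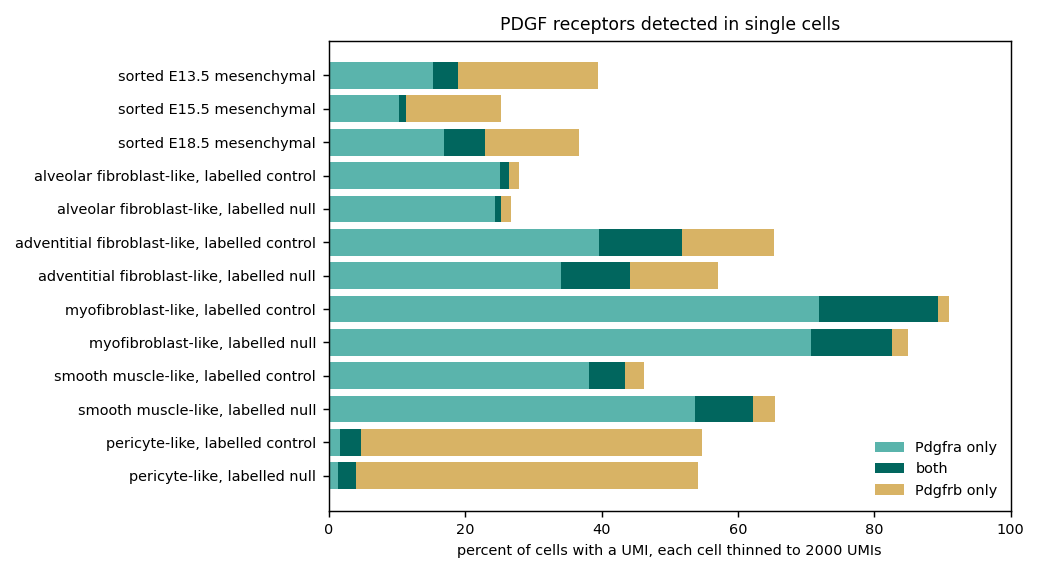
Percent of cells with a UMI of Pdgfra alone, of both receptors or of Pdgfrb alone after each cell was thinned to 2000 UMIs, stacked by population, with the rest of each population holding neither. Myofibroblast-like bars are mostly Pdgfra alone (71.9% and 70.7%) and pericyte-like bars mostly Pdgfrb alone (50% and 50.2%). Alone means that no UMI of the other receptor was found at this depth.

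Pdgfra UMIs also appeared in epithelial, endothelial and immune classes, and there they sat mainly in cells that also passed the mesenchymal gate. In AT1-like cells of the library labelled control, 33 cells that passed that gate held 361 CPM and the other 205 held 3.86 CPM. In monocyte-like cells the figures were 224 CPM in 64 cells and 1.47 CPM in 501 cells, and in gCap-like cells 293 CPM in 13 cells and 4.80 CPM in 714 cells. Macrophage-like cells were the high ones among these classes, at 577 CPM in 88 cells and 28.8 CPM in 103 cells, and their 5 mesenchymal check markers summed to 2445 and 2359 CPM in the 2 libraries. In the SoupX-adjusted values of the authors Pdgfra was at 0 in AT1-like, AT2-like, ciliated-like, secretory-like and monocyte-like cells of both libraries, and at 454 and 263 CPM in macrophage-like cells. Doublets were not called, and their part was not tested.

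**Figure D5:**
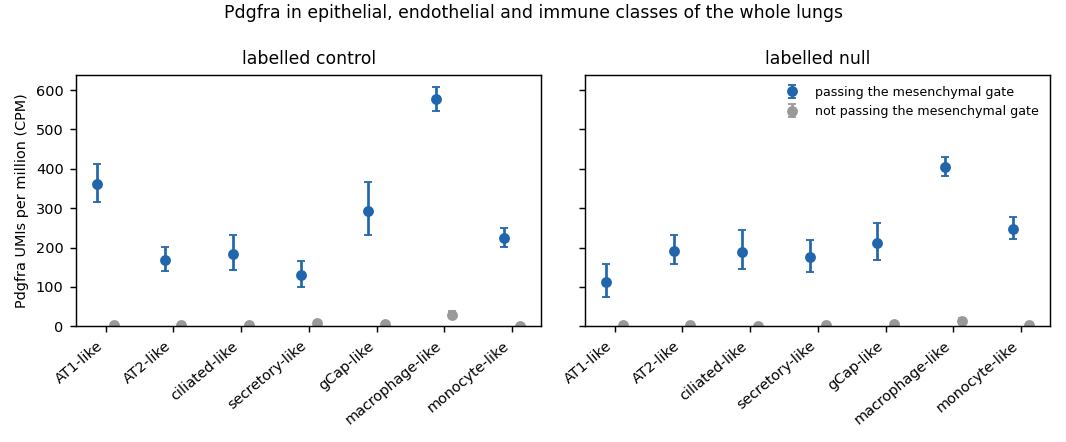
Pdgfra in counts per 1000000 UMIs (CPM, linear axis) in the epithelial, endothelial and immune classes of the whole lungs, split into cells that pass the mesenchymal gate (blue) and cells that do not (grey), in the library labelled control (left) and labelled null (right), with exact 95% Poisson intervals. All 7 classes of both libraries hold more in the cells that pass the gate, with macrophage-like cells highest at 577 and 406 CPM.

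Between the whole lungs, 3 of 37 pairs of a member and a class with at least 10 CPM differed by 2-fold or more, against 1.96% of the 101350 such pairs over all genes, and all 3 were lower in the library labelled null. That direction was not stable over the settings tried: pairs past 2-fold were 4 higher and 1 lower in the library labelled null in SoupX-adjusted values, 3 and 3 without cells over 2 times the median depth, and 2 and 2 at a clustering resolution of 0.4. The 3 pairs were Pdgfra in AT1-like cells (72.2 against 16.0 CPM, log2 ratio of labelled null over labelled control -2.14, -2.81 to -1.5), Pdgfra in pericyte-like cells (38.3 against 17.4 CPM, -1.11, -1.76 to -0.48) and Pdgfc in smooth muscle-like cells (59.9 against 22.0 CPM, -1.43, -2.01 to -0.84). Without cells that pass the mesenchymal gate the first ratio was -0.15, at 3.86 and 3.43 CPM in the libraries labelled control and null, under the 10 CPM asked of a pair. The second was 0.08 in the SoupX-adjusted values. The third was -0.46 at the resolution of 0.4.

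Pdgfra was lower in the library labelled null in 10 of the 12 named classes and higher in 2, the smooth muscle-like and AT2-like cells, but its range left out 0 in 6 of them, 5 lower and 1 higher. In 5 of the 12 classes Pdgfra was at 0 in the SoupX-adjusted values of both libraries, as given above. In the classes where it is most abundant the log2 ratios were -0.35 (-0.40 to -0.30) in myofibroblast-like, -0.55 (-0.69 to -0.42) in adventitial fibroblast-like and 0.47 (0.32 to 0.62) in smooth muscle-like cells. Both myofibroblast-like clusters were on the same side, at 1382 against 1055 CPM in the one led by Lnx1, Gdf10 and Wif1 and 1388 against 1157 CPM in the one led by Cpne7, Vsnl1 and Stc1. So were both adventitial fibroblast-like clusters, at 527 against 368 CPM and 254 against 198 CPM, the second with Upk3b, a mesothelial gene, among its leading genes. The smooth muscle-like difference was 0.05 at the resolution of 0.4. The free RNA the authors removed also differed, at 40% of UMIs in the library labelled control and 18.5% in the library labelled null, and its part was not tested.

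Pdgfrb and Pdgfb were close between the labels in the named classes where each was highest. Pdgfrb in pericyte-like cells had a log2 ratio of 0.02 (-0.13 to 0.17) and Pdgfb in gCap-like cells of 0.02 (-0.13 to 0.17). Pdgfrb was higher in the library labelled null in 3 and lower in 4 classes, and its range left out 0 in 1 of them, the myofibroblast-like cells (-0.22, -0.39 to -0.05). Over all ECs Pdgfb was higher in the library labelled null, at 202.3 against 183.1 CPM (0.14, 0.06 to 0.23). It was also higher there in all 6 classes with enough UMIs, but its range left out 0 in 1 of them, the monocyte-like cells (0.41, 0.02 to 0.80), where the ratio was -0.36 without cells over 2 times the median depth. Pdgfa was higher in 6 and lower in 4 classes, and its range left out 0 in AT1-like cells alone (0.28, 0.01 to 0.55), where the ratio was -0.05 in SoupX-adjusted values. Pdgfd in gCap-like cells was higher in the library labelled null, at 0.65 (0.08 to 1.23), as it was over all ECs (15.5 against 27.4 CPM, 0.80, 0.53 to 1.08), where 1.07% of all genes but no member passed 2-fold. The share of ECs with Gja4 alone, given above, was also higher in the library labelled null. In mesenchymal-gated cells no member passed 2-fold, against 1.2% of all genes, with Pdgfra at -0.43 (-0.47 to -0.39) and Pdgfrb at 0.11 (0.02 to 0.21).

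A list of 45 genes that cleave, bind, transmit or limit PDGF signals, or belong to related receptors, was followed in the same comparisons. In sorted ECs, 6 of 35 listed genes with enough UMIs were 2-fold higher and 2 lower at P8 than at E15.5, with a median log2 ratio of 0.59 beside 0.18 over all genes, of which 20.7% passed 2-fold in either direction. Plat, the plasminogen activator that cleaves PDGF-C, went from 10.7 CPM at E15.5 through 18.3 CPM at E18.5 to 103.8 CPM at P8. Errfi1 and Spry2, both limiters of receptor tyrosine kinase signalling, were at 80.4 and 20.0 CPM at P8 against 16.6 and 4.21 CPM at E15.5. Lower at P8 were Hspg2, the heparan sulphate proteoglycan perlecan (33.3 against 226.3 CPM), and Nrp2, a neuropilin (9.89 against 31.3 CPM).

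Between neighbouring times fewer listed genes passed 2-fold. From E13.5 to E15.5, 2 of 35 were higher, Kit (18.4 to 67.1 CPM) and Cav1 (324 to 936 CPM), and 1 was lower, Src (16.8 to 6.77 CPM). From E15.5 to E18.5, 1 of 34 was higher and none lower, the 1 being Nrp1, the neuropilin (281.5 to 593.0 CPM). From E18.5 to P8, 3 of 35 were higher and 2 lower, which were Plat, Errfi1 and Spry2, and Nrp2 and Hspg2. The list medians were -0.10, 0.48 and 0.10 beside -0.08, 0.19 and 0.04 over all genes, of which 6.21%, 13.8% and 8.4% passed 2-fold.

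Along the arterial split the list held genes on both sides. At E15.5, 7 of 34 were 2-fold higher and 2 lower in Gja4 ECs, at E18.5 3 and 4 of 35, and at P8 2 and 4 of 36, with list medians of 0.32, 0.07 and -0.01 beside 0.10, 0.06 and -0.03 over all genes, of which 12.6%, 13.6% and 10.8% passed 2-fold. Pcsk5, a proprotein convertase, was higher in Gja4 ECs at all 3 times (177, 309 and 387 CPM against 28.7, 77.9 and 117 CPM). Ptprj, a receptor phosphatase, was at 19.9 against 0.813 CPM at E18.5 and 25.8 against 4.41 CPM at P8. Csf1 and Slc9a3r2 were higher at E15.5 (15.02 against 3.76 CPM and 602 against 211 CPM) and Plat at E18.5 (27.6 against 10.1 CPM). Kit, the receptor for stem cell factor, was lower in Gja4 ECs at all 3 times (38.1, 43.6 and 49.0 against 116, 144 and 129 CPM), as was Nrp2, and its ligand gene Kitl was lower at E18.5 (126.5 against 381.9 CPM) and P8 (227.4 against 656.9 CPM).

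In sorted mesenchymal cells 6 of 36 listed genes were 2-fold higher and 1 lower at E15.5 than at E13.5, with a list median of 0.06 beside -0.12 over all genes, of which 11.2% passed 2-fold. Leading were Itgb3, an integrin subunit (1.60 to 11.0 CPM), Hspg2 (31.1 to 104.2 CPM) and Sparc, a matrix protein that binds PDGF (1481 to 4613 CPM), with Nrp2 lower (59.3 to 20.99 CPM). Between sorted E18.5 ECs and those of the library labelled control, 2 of 36 were higher in the sorted ones (Plat and Pcsk5) and 3 lower, where 6.87% of all genes passed 2-fold. These were Csf1r (0.153 against 30.6 CPM), Lrp1 (0.357 against 36.2 CPM) and Nrp2 (46.1 against 93.2 CPM). Against the library labelled null none was 2-fold higher and 2 were lower, Csf1r and Lrp1 (17.7 and 20.4 CPM there), where 4.02% of all genes passed. The log2 ratios of Plat, Pcsk5 and Nrp2 were then 0.66, 0.81 and -0.31. The 4 immune check markers moved with Csf1r, summing to 4.11 CPM in the sorted ECs and to 401 and 209 CPM in the ECs of the libraries labelled control and null. Between the labelled lungs 1 of 36 was past 2-fold in ECs, Plat (11.4 CPM in labelled null, 4.94 CPM in labelled control), and none of 36 in mesenchymal cells, against 1.07% and 1.2% of all genes.

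Over the 12 named whole-lung classes, the genes whose level of log2(CPM + 1) followed each member most closely were taken from 10464 genes, as a description in which all points share 2 libraries. For Pdgfb they were Cd93, Plvap and Gimap1 (Pearson r 0.969, 0.956 and 0.955), for Pdgfd Arl15, Impdh1 and Cd109 (0.954, 0.949 and 0.947), for Pdgfa Sorcs2, Kctd1 and Dcbld2 (0.918, 0.901 and 0.893) and for Pdgfc Sbspon, Pdia4 and Ddit4l (0.959, 0.945 and 0.878). For Pdgfra they were Mmp2, Arrdc3 and Scara5 (0.989, 0.975 and 0.971) and for Pdgfrb Abcc9, Gucy1a1 and Pcdh18 (0.990, 0.965 and 0.957). Cd93 and Plvap are in the gCap marker list and Abcc9 is in the pericyte list, so they also took part in naming the classes. The gCap-like cells were the only endothelial class among the 12, and the unnamed EC clusters were left out. For Pdgfd the other classes held at most 2.69 CPM, so its correlations rest largely on the gCap-like cells. Pdgfc reached 10 CPM in the smooth muscle-like cells alone, and its levels elsewhere rest on few UMIs in several classes. The gCap-like cells, for example, held 1 UMI of Pdgfc in the library labelled control and 7 in the library labelled null.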

How the data were processed

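Lung cells of 6 libraries, 4 sorted by age and 2 of whole E18.5 lungs, were grouped by the submitters' labels. Per the submitters' processing notes, 3′ reads were aligned with Cell Ranger 3.1 to mm10 and handled in Seurat 3.2.2. The authors deposited raw UMI counts per gene and called cell, without normalization. A second deposited matrix of each whole lung holds expected counts, made with SoupX by subtracting estimated free RNA, and these are not whole numbers. These served for the cell filter, clustering and naming, and as an alternative for levels.

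Cells with at least 700 genes and 0.5% to 10% mitochondrial UMIs were kept. Genes were summed over gated cells as CPM, with exact Poisson intervals at 95%, and compared as log2 ratios with a pseudocount of 0.5 CPM. A gene was counted past 2-fold where 1 group had at least 10 CPM. A UMI count of 0 was given the limit that 3 UMIs allow. For shares, cells were thinned to 2000 UMIs and shallower cells left out (2 to 197 per sorted EC population). With 1 library per condition no test was made, and lungs pooled in a library cannot be told apart.

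Whole-lung cells were clustered on Pearson residuals (theta 100) of 3000 variable genes, without the 6 members and the 45 listed genes, with 20 components, 20 neighbours and Louvain resolution 0.8 (10 starts, seed 1). Clusters were named by marker scores of at least 0.5, and either 2 markers among the 10 leading genes or a score 0.4 above the second, limits chosen after the clusters were seen. A cycling cluster, or one with more leading genes from other marker lists than from its own, stayed unnamed. ECs of some clusters stayed unnamed, and classes of fewer than 50 cells in a library were left out. No doublet caller was run, and cells over 2 times the median depth were left out as an alternative. The 6 members, the pathway list, the markers and the gates were chosen with earlier results of these data known. Named genes were the members, the up to 3 listed genes per direction of largest ratio past 2-fold in a comparison, and the 3 genes most like each member.

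Scripts were tested on simulated data. Python 3.11.15, numpy 2.4.6, scipy 1.17.1, pandas 2.3.3 and scikit-learn 1.9.0 were used, with gene bounds from GENCODE M21.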

Additional observations from a re-analysis of the deposited data

Results flagged for a closer look

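Pdgfb differed in direction between time points. Its log2 ratio of Gja4-gated over Gpihbp1-gated sorted ECs was 0.35 at E15.5 but -0.48 and -0.77 at E18.5 and P8, with every cell population of a time point from 1 library. The difference between the times was not tested. With deep cells left out the E15.5 ratio was 0.23, on the same side.

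Pdgfra differed in direction between classes of the whole lungs. Its log2 ratio of the library labelled null over the library labelled control was 0.47 in smooth muscle-like cells, where it was higher in the library labelled null. It was -0.35 in myofibroblast-like, -0.55 in adventitial fibroblast-like, -0.54 in macrophage-like, -1.11 in pericyte-like and -2.14 in AT1-like cells, where it was lower. The smooth muscle-like ratio was 0.05 at a clustering resolution of 0.4, the pericyte-like ratio 0.08 in SoupX-adjusted values, and the AT1-like ratio -0.15 without cells that pass the mesenchymal gate. The difference between the classes was not tested, and Cxcl12 levels go against the labels of both libraries.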

How the results depend on the processing

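No paired analysis was possible because each condition is 1 library, and no replicate could be left out. Of 234 values recomputed under other settings for 31 results, 193 stayed within the range of the main value and 38 moved outside it. The other 3 changed direction, which was counted only where the range of the main value left out 0. For the count of pairs, a set fold around the main count took the place of the range. The causes were not tested. The Pdgfd ratio of Gja4 over Gpihbp1 ECs at E18.5 was 1.45 as a mean of per-cell CPM. The Pdgfb ratio of P8 over E15.5 ECs was 0.38 without deep cells (over 2 times the median UMIs), 0.38 as a mean of per-cell CPM and 0.22 without mitochondrial, ribosomal protein and haemoglobin UMIs in the total. From E13.5 to E15.5 in mesenchymal cells, Pdgfra had a ratio of -0.92 and Pdgfrb of -1.17 with cells of both gates kept in, and Pdgfrb of -0.88 as a mean of per-cell CPM. The share of E13.5 mesenchymal cells with both receptors was 10.7% at 4000 UMIs per cell and 25.3% without thinning. In the library labelled control, Pdgfa in AT1-like over AT2-like cells was 1.39 without deep cells, and Pdgfrb in pericyte-like over alveolar fibroblast-like cells was 6.62 in SoupX-adjusted values and 4.75 with a pseudocount of 5 CPM, with no value at resolution 0.4, where that cluster had no name. Pdgfra in myofibroblast-like over alveolar fibroblast-like cells was 3.0 at resolution 0.4, 3.66 in SoupX-adjusted values, 2.68 without those UMIs in the total, 2.90 without deep cells and 2.88 as a mean of per-cell CPM. The pairs past 2-fold between the labels numbered 5 in SoupX-adjusted values (4 higher and 1 lower in the library labelled null), 6 without deep cells (3 and 3), 4 at resolution 0.4 (2 and 2) and 4 (1 and 3) without cells of other classes that pass the mesenchymal gate, a setting chosen after seeing the data. Ratios of labelled null over labelled control that changed direction were Pdgfa in AT1-like cells (-0.05) and Pdgfra in pericyte-like cells (0.08) in SoupX-adjusted values, and Pdgfb in monocyte-like cells (-0.36) without deep cells. Depth limits Pdgfc in ECs, all members in the 68 mesenchymal cells of P8 and the 173 ECs of E13.5.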
